A study of Mus musculus with 12 samples.

Results

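The actin cytoskeleton genes examined here were the 10 listed genes of the cytoplasmic actins and the Arp2/3 complex, out of 55450 genes in the count table. They were chosen by name, 2 actins (Actb and Actg1) and 8 Arp2/3 subunits (Actr2, Actr3, Arpc1a, Arpc1b, Arpc2, Arpc3, Arpc4 and Arpc5), and all 10 were among the 20417 genes that passed the filter on low counts. The RNA came from subcutaneous TRAMPC2-Ras (TC2R) tumors, a mouse prostate tumor line that carries an activated H-ras, in C57BL6 males that were 8 to 10 weeks old. Tumors were taken on day 26, and each of the 12 libraries, 2 for each of 6 groups, was labelled as a pool of 4 to 6 tumors. On day 4 every group had received a plasmid by intramuscular sonoporation. This was the empty vector (pMCS), IL-27 with a non-specific C-terminal peptide (IL-27), or IL-27 with a C-terminal peptide that binds the IL-6 receptor alpha chain (27pepL). Recombinant IL-18 was injected into the tumor on day 10 after each of the 3 plasmids, which gave the groups IL-18 (after pMCS), 27→18 and 27pepL→18. All comparisons therefore set whole-tumor pools of 1 transplanted line beside each other, and fewer cells of a type cannot be told apart from less RNA per cell.

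Cytoplasmic β-actin and γ-actin are the monomers from which a cell builds its filaments. The Arp2/3 complex starts a new filament as a branch on the side of an existing one, with Actr2 (Arp2) and Actr3 (Arp3) standing in for the first actin monomers of the branch. Arpc2 and Arpc4 form the core that holds the mother filament, Arpc1 and Arpc5 take part in activation, and Arpc3 links to Arp3. Proteins of the WASP and WAVE families switch the complex on downstream of Cdc42 and Rac, and branched networks push the membrane forward in crawling tumor cells and leukocytes. Several subunits come in 2 versions from separate genes (Arpc1a or Arpc1b, Arpc5 or Arpc5l, Actr3 or Actr3b), and ARPC1B is the version that human blood cells mainly use. Actb is also a common reference gene for RNA measurements.

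The actin genes share long stretches of sequence, which bears on how reads are divided between them. The first 60 coding bases are shown for Actb (chr5:142905627-142905686, minus strand) and Actg1 (chr11:120348032-120348091, minus strand), with coordinates on GRCm38 and the sequence from GENCODE M21, 5′ to 3′. Capitals mark the 9 bases at which they differ.
Actb: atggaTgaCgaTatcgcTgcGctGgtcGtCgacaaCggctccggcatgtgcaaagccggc
Actg1: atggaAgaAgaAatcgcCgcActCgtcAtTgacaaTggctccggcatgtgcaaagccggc
Over the whole coding sequence of 1128 bases, Actb and Actg1 were identical at 1000 bases (88.7%), and the longest run without a difference was 62 bases. The versions of the other subunits were further apart, with 73.6% identity between Arpc1a and Arpc1b, 71.3% between Arpc5 and Arpc5l and 76.3% between Actr3 and Actr3b, and no shared run over 21 bases. The pseudogene Actg-ps1 held 48 to 473 counts in a library and the relative Actbl2 held none, beside 116156 to 402679 counts for Actb.

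Promoter sequences, 250 bases before to 50 after the start site, were matched in RefSeq (GRCm38.p6) for 9 of the 10 genes. The gene without a matched promoter was Actb, so none of the motifs below was searched for it. Actin genes are textbook targets of serum response factor (SRF), whose site is the CArG box, so this motif was searched on both strands. It was in 2 of the 9, Actg1 and Arpc4, and in 535 (1.63%) of 32851 promoters of the same length. In Actg1 (chr11:120348446-120348745, minus strand) the box began 90 bases before the start site, and in Arpc4 (chr6:113377863-113378162, plus strand) it lay at the far edge of the window, beginning 250 bases before. Both are shown with the CArG box in capitals.
Actg1: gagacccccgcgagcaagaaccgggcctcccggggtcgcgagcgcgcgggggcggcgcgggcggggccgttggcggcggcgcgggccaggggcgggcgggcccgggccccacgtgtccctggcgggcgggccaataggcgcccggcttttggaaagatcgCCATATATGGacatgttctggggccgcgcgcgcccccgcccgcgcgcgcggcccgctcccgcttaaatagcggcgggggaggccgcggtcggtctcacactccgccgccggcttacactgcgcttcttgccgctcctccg
Arpc4: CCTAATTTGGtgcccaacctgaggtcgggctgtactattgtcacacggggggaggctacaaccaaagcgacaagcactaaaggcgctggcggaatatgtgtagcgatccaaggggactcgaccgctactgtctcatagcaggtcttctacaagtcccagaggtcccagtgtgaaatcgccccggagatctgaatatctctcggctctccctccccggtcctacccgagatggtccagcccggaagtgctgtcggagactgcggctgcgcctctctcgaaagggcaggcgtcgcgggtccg
Actr2 and Actr3, whose levels followed each other most closely among the 10 genes, are shown with GGGCGG on either strand in capitals, at chr11:20112902-20113201 and chr1:125435678-125435977, both on the minus strand.
Actr2: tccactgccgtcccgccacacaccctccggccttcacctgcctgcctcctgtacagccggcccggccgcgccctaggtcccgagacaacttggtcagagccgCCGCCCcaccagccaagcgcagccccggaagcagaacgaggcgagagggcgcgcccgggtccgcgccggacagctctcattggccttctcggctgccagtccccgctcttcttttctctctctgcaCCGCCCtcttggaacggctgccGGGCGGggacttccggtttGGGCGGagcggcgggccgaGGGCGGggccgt
Actr3: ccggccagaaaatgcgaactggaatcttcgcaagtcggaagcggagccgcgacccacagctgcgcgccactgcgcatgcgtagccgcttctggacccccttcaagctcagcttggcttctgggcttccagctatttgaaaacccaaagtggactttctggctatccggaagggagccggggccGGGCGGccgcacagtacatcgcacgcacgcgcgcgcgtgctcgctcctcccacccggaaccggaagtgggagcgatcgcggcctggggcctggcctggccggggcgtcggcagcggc
GGGCGG was in 7 of the 9 promoters, where Arpc1a and Arpc4 had none, and in 35.7% of all promoters. The shorter CCAAT was in Actg1, Actr2 and Arpc5 and in 37.4% of all promoters. These matches are letters in a window and not measured binding.

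Before the results, the libraries themselves differed. Total counts ran from 49844915 to 76620862, and replicates within a group correlated at r = 0.873 to 0.961 (log2 CPM across genes, which are not independent replicates). CPM, the level used throughout, is a count relative to its library's total after TMM scaling, which corrects for differences in RNA composition. In 5 libraries (pMCS 1, IL-27 2, 27→18 2, 27pepL 1 and 27pepL→18 1) levels relative to the other libraries fell with transcript length, and in the other 7 they rose. Spearman's rho with length ran from −0.42 (27→18 2) to −0.10 (27pepL→18 1) in the 5. In the 7 it ran from 0.04 (IL-18 1) and 0.07 (pMCS 2), close to no trend, to 0.30 (27pepL 2). The 2 kinds are therefore divided by sign only. Every group except IL-18 had 1 library of each kind, and both IL-18 libraries were of the second kind. Markers of other cells moved too. The sum of 8 leukocyte markers was 1554 CPM in IL-27 1 and 240.8 to 488.3 in the other 11 libraries, and the sum of 7 adipocyte markers was 10259 CPM in IL-27 1 and 44.6 to 1054 elsewhere. Skeletal muscle markers summed to 50.7 and 186.7 CPM in 27→18 against 0.796 to 7.29 elsewhere. The 7 hepatocyte markers, Alb and Ttr among them, summed to 0 to 0.275 CPM in the 6 libraries of 27→18, 27pepL and 27pepL→18 and to 191.3 to 305.7 in the remaining 6. The sum of 9 fibroblast and smooth muscle markers, collagens among them, divided the libraries as the length trend did, at 2450 to 3818 CPM in the 5 with a falling trend and 5480 to 10858 in the other 7. Of the prostate and tumor markers, Krt5, a keratin of basal epithelium, had 0 counts in every library.

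The levels of different genes are set in order here per kilobase of transcript. Actb had a median of 1763 CPM per kb and Actg1 1211 over the 12 libraries. The Arp2/3 subunits followed far below, with Arpc3 at 261.0 CPM per kb, Arpc2 at 225.8, Arpc1b at 134.4, Arpc4 at 101.4, Arpc1a at 80.0, Actr3 at 67.5, Arpc5 at 41.3 and Actr2 at 39.9. The ranges of neighbours in this order overlapped over the libraries, except between Actg1 and Arpc3. The median length of each gene's protein-coding transcripts was used, and with the longest or the shortest one Arpc4 would lie between 47.3 and 154.5 CPM per kb and Actg1 between 1133 and 2526, so the order of the 2 actins depends on this choice.

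No member passed an adjusted p of 0.05 (edgeR quasi-likelihood test, Benjamini-Hochberg over 20417 genes) in any of the 15 comparisons. Of all genes tested against pMCS, 0.235% were called with 27→18, 0.255% with 27pepL, 0.23% with 27pepL→18 and 0% with either cytokine alone (IL-18 or IL-27). Against IL-27, 0.245% were called with 27→18 and 0.245% with 27pepL. The share was 0.377% for the mean of the 5 cytokine groups against pMCS, 0.147% for the effect of IL-18 after IL-27 set against its effect after pMCS, and 0% in the other 6 comparisons. An unadjusted p under 0.05 was reached by Actr3 in 5 of the 15 comparisons and by Arpc4 in 1, and by no other member. With DESeq2 and with the edgeR exact test no member was called after adjustment either. An F test for any difference among the 6 groups called 0.269% of genes and none of the 10. Actr3 had the smallest p of the members there, and 4.47% of all genes had a smaller one, followed by Arpc4 with 9.57%.

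**Figure D1:**
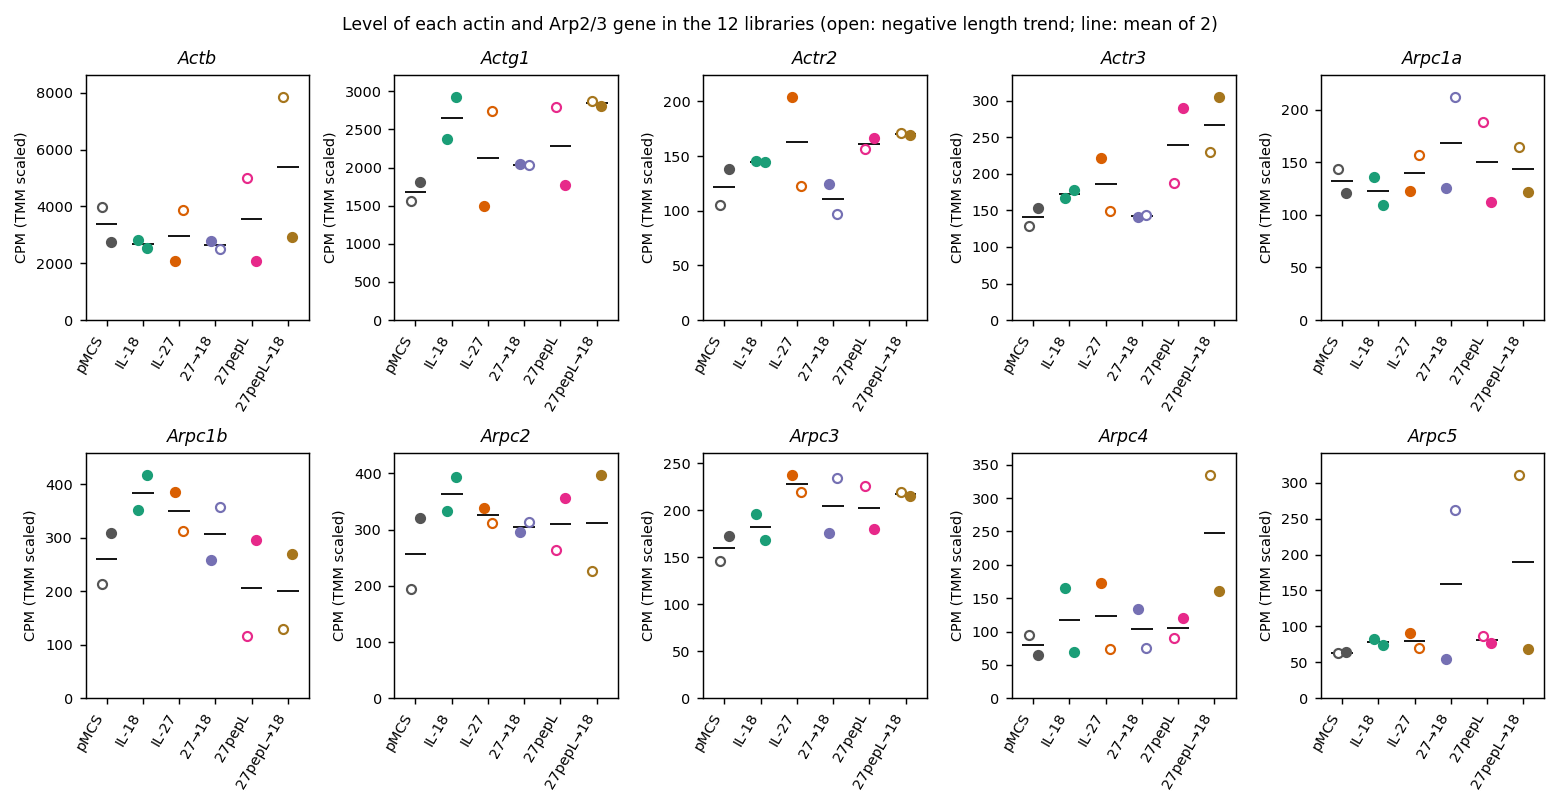
Level of each of the 10 genes in CPM with TMM scaling (vertical axis) in the 2 libraries of each of the 6 groups (horizontal axis). Lines are means of 2, and open points are the 5 libraries whose levels fell with transcript length. Replicates of Arpc5 differed up to 4.81-fold, while those of Arpc3 differed by at most 1.33-fold.

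Actr3, the Arp3 subunit (ENSMUSG00000026341, chr1:125392905-125435727, minus strand on GRCm38, as for all positions that follow), had the smallest p-values of the 10. Its levels were 128.8 and 152.8 CPM in pMCS, 166.7 and 178.6 in IL-18, 221.7 and 149.4 in IL-27, 141.2 and 143.3 in 27→18, 187.6 and 290.9 in 27pepL, and 229.4 and 305.5 in 27pepL→18. Both 27pepL and both 27pepL→18 libraries, at 187.6 to 305.5 CPM, lay above both pMCS and both 27→18 libraries, which reached 152.8 CPM. IL-27 1 (221.7 CPM) fell among the 27pepL forms. In both libraries, 13.5% of all genes lay above pMCS in 27pepL and 14.1% in 27pepL→18. Of the 20417 tested genes, 2477 lay above 27→18 in 27pepL→18 in the same way, and 2423 lay lower in 27→18 than in 27pepL. Endothelial marker sums were 210.7 and 234.8 CPM in 27pepL→18 and 163.2 and 190.1 in 27pepL. In pMCS they were 91.8 and 167.5, with 111.0 and 193.0 for 27→18. Macrophage marker sums were 739.3 to 1123 CPM in the 4 libraries of the 27pepL forms and 849.8 and 1070 in 27→18, against 315.7 and 602.3 in pMCS. The part of these cells in the Actr3 values was not tested. The log2 fold change against pMCS was 0.77 ± 0.31 (SE) for 27pepL and 0.93 ± 0.32 for 27pepL→18, which is 1.7-fold and 1.9-fold. Both had an unadjusted p under 0.05 in edgeR's test, as had 3.77% and 3.29% of all genes, and neither passed adjustment (adjusted p = 1 in both).

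Actr3 was also compared between treated groups. Actr3 was higher in 27pepL→18 than in 27→18 by 0.91 ± 0.32 on the log2 scale, and its difference of 27→18 from 27pepL was −0.75 ± 0.31, each with an unadjusted p under 0.05, as had 1.74% and 1.91% of genes, and an adjusted p = 1. With IL-18 averaged over, the 4 libraries of the 27pepL forms exceeded the 4 of the IL-27 forms by 0.64 ± 0.22 (edgeR adjusted p = 0.898), where 4.97% of genes had an unadjusted p under 0.05. Without IL-27 2 this difference was 0.52, without 27pepL 2 it was 0.45 and without 27pepL→18 2 it was 0.52, and in these 3 cases its unadjusted p was no longer under 0.05.

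Within the libraries with a falling length trend, the differences of Actr3 from pMCS 1 were 0.54 (27pepL) and 0.83 (27pepL→18), and within the others, from pMCS 2, they were 0.93 and 1.0. The 27pepL value against pMCS became 0.42 without 27pepL 2 and 0.65 without pMCS 1. The 27pepL→18 value became 0.71 without 27pepL→18 2 and 0.81 without pMCS 1, and in these 4 cases, too, the unadjusted p rose above 0.05. For 27pepL it also did so without pMCS 2 (0.93), IL-18 1 (0.77) or IL-18 2 (0.78). Adding IL-18 changed Actr3 by 0.02 ± 0.18 on average over the 3 plasmids, which is within its standard error of 0. This average joins values of unlike sign, 0.29 ± 0.31 after pMCS, −0.38 ± 0.31 after IL-27 and 0.16 ± 0.31 after 27pepL.

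Actr2 (ENSMUSG00000020152, chr11:20062304-20112913, minus strand), the Arp2 subunit, stood at 104.9 and 138.0 CPM in pMCS, 145.3 and 144.5 in IL-18, 204.1 and 122.4 in IL-27, 124.6 and 97.0 in 27→18, 156.2 and 166.2 in 27pepL, and 171.1 and 169.5 in 27pepL→18. Its lowest pair was 27→18, below both 27pepL libraries (97.0 and 124.6 against 156.2 and 166.2 CPM), an order that 2423 of the 20417 tested genes had. Its highest library was IL-27 1. The largest log2 difference in its 10 comparisons of 2 groups was 0.62 ± 0.30 for 27pepL→18 over 27→18 (edgeR adjusted p = 1), and 0.49 ± 0.30 separated 27pepL→18 from pMCS. Actr2 and Actr3, which sit side by side in the complex, had the highest correlation among the 45 pairs of members, with r = 0.80 and Spearman's rho = 0.90 over the 12 libraries.

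Arpc2 and Arpc4 are the core pair. Arpc2 (ENSMUSG00000006304, chr1:74236084-74268209, plus strand) stood at 194.5 and 319.8 CPM in pMCS, 333.0 and 393.6 in IL-18, 338.5 and 311.8 in IL-27, 296.4 and 314.3 in 27→18, 264.5 and 356.4 in 27pepL, and 227.3 and 396.8 in 27pepL→18. The lowest library was pMCS 1, and only the 2 IL-18 libraries lay clear of both pMCS libraries, at 0.50 ± 0.35 on the log2 scale (edgeR adjusted p = 1). Both IL-18 libraries had the rising length trend, and against pMCS 2, whose trend had the same sign, the difference was 0.18. In the libraries whose levels fell with length Arpc2 ran from 194.5 to 314.3 CPM, and in the other 7 from 296.4 to 396.8.

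Arpc4 (ENSMUSG00000079426, chr6:113378115-113390448, plus strand) differed strongly between replicates. It stood at 94.4 and 65.3 CPM in pMCS, 165.0 and 69.0 in IL-18, 173.3 and 74.3 in IL-27, 133.2 and 75.1 in 27→18, 90.2 and 120.3 in 27pepL, and 334.3 and 161.4 in 27pepL→18. Both 27pepL→18 libraries lay above both pMCS libraries, with a log2 fold change of 1.63 ± 0.58 (3.1-fold, edgeR adjusted p = 1), the largest against pMCS among the members. Without the filter on low counts this value was 1.65 and passed adjustment (edgeR adjusted p = 0.0102). Leaving out 1 library moved it between 1.02 and 2.08. The IL-18, IL-27 and 27→18 groups each held 1 library at 133.2 CPM or more and 1 at 75.1 or less, and the replicates of IL-18 differed 2.39-fold. Arpc4 shares 1189 bases of its 3′ end on the same strand with Ttll3, a tubulin ligase-like gene, to which 76 to 426 counts were assigned, so reads from that stretch cannot be divided with certainty.

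Arpc3 (ENSMUSG00000029465, chr5:122391878-122414184, plus strand), the subunit beside Arp3, was the steadiest member. It stood at 146.0 and 172.9 CPM in pMCS, 195.9 and 168.5 in IL-18, 237.1 and 219.1 in IL-27, 175.2 and 233.6 in 27→18, 225.8 and 179.4 in 27pepL, and 219.6 and 214.9 in 27pepL→18. Both libraries of IL-27, 27→18, 27pepL and 27pepL→18 lay above both pMCS libraries, the only member with that order in 4 groups apart from Arpc5, for which 27→18 was replaced by IL-18. The log2 fold changes were 0.52 ± 0.26 for IL-27 (edgeR adjusted p = 1), 0.36 for 27→18, 0.35 for 27pepL and 0.45 for 27pepL→18. These comparisons share the 2 pMCS libraries, and 27→18 1 (175.2 CPM) and 27pepL 2 (179.4 CPM) lay only just above pMCS 2 (172.9 CPM). In a single treated group, 10.7 to 19.3% of all genes lay above both pMCS libraries. The share that did so in 4 groups at once was not computed. Of the 5522 genes with a mean log2 CPM of at least 5, only 8.38% had a lower standard deviation within groups than Arpc3. Over the 12 libraries Arpc3 went with the leukocyte marker sum more than any other member (r = 0.54, Spearman's rho = 0.65), and the part of leukocytes in its levels was not tested.

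Arpc5 (ENSMUSG00000008475, chr1:152766542-152775597, plus strand), the subunit at the activating end, had 2 libraries far above the rest. It stood at 62.4 and 65 CPM in pMCS, 82.3 and 74.3 in IL-18, 91.2 and 69.7 in IL-27, 54.5 and 262.5 in 27→18, 86.2 and 76.5 in 27pepL, and 310.4 and 68.1 in 27pepL→18. Outside 27→18 2 and 27pepL→18 1, the range was 54.5 to 91.2 CPM. The group log2 fold changes of 1.31 ± 0.75 for 27→18 and 1.57 ± 0.75 for 27pepL→18 therefore each rested on 1 library, and neither had an unadjusted p under 0.05. Without 27→18 2 the first became −0.22. Within the libraries with a rising length trend, Arpc5 in 27pepL→18 differed from pMCS by 0.07, and within those with a falling trend by 2.31, 1 library against 1 in each. Both high libraries had a falling trend, as had pMCS 1, IL-27 2 and 27pepL 1, at 62.4, 69.7 and 86.2 CPM. Without the filter on low counts the group value for 27pepL→18 passed adjustment (1.58, edgeR adjusted p = 0.0169), as did the mean effect of added IL-18 (0.84, edgeR adjusted p = 0.0455).

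Arpc5l, the other version of that subunit, stood at 104.1 and 82.1 CPM in pMCS, 70.5 and 63.2 in IL-18, 63.4 and 93.0 in IL-27, 68.6 and 117.8 in 27→18, 135.9 and 62.7 in 27pepL, and 127.8 and 74.4 in 27pepL→18. Its 5 highest libraries (93.0 to 135.9 CPM) were the 5 with a falling length trend, and the other 7 ran from 62.7 to 82.1. The alternative Arp3 gene, Actr3b, was barely detected, with at most 1.07 CPM.

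Arpc1a (ENSMUSG00000029621, chr5:145083830-145108761, plus strand) and Arpc1b (ENSMUSG00000029622, chr5:145114215-145130705, plus strand) are neighbours on chromosome 5. Arpc1b stood at 212.8 and 308.4 CPM in pMCS, 351.3 and 416.7 in IL-18, 385.6 and 312.8 in IL-27, 257.6 and 357.5 in 27→18, 116.8 and 296.4 in 27pepL, and 129.5 and 269.5 in 27pepL→18. Its lowest libraries were 27pepL 1 and 27pepL→18 1, at 116.8 and 129.5 CPM, while the highest was IL-18 2. Both IL-18 and both IL-27 libraries lay above both pMCS libraries, by 0.56 ± 0.49 and 0.42 ± 0.49 on the log2 scale (edgeR adjusted p = 1 in both). Against pMCS 2 alone, whose length trend had the same sign, the IL-18 difference was 0.31. The 27pepL forms were lower than the IL-27 forms by a log2 difference of −0.69 ± 0.34 (edgeR adjusted p = 0.898). Within the libraries with a falling length trend, 27pepL differed from IL-27 by −1.42 and 27pepL→18 from 27→18 by −1.46. Within those with a rising trend the differences were −0.38 and 0.07, each time 1 library against 1. Arpc1b overlaps 1937 bases of Pdap1 on the opposite strand, with 5836 to 14654 counts.

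Arpc1a stood at 143.5 and 120.3 CPM in pMCS, 135.8 and 109.8 in IL-18, 122.5 and 156.5 in IL-27, 125.3 and 212.1 in 27→18, 187.8 and 112.0 in 27pepL, and 164.5 and 122.1 in 27pepL→18. No group lay clear of pMCS. As with Arpc5l, the 5 libraries with a falling length trend (143.5 to 212.1 CPM) lay above the other 7 (109.8 to 135.8 CPM), and the fibroblast and smooth muscle marker sum divided the libraries along the same line in the opposite direction. The part of either in the levels of Arpc1a was not tested. The leukocyte marker sum and Arpc1b had r = 0.28 and Spearman's rho = 0.11 over the 12 libraries.

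Among the actins, Actb (ENSMUSG00000029580, chr5:142903115-142906754, minus strand) stood at 3987 and 2765 CPM in pMCS, 2802 and 2524 in IL-18, 2072 and 3864 in IL-27, 2773 and 2496 in 27→18, 4990.3 and 2096 in 27pepL, and 7857 and 2936 in 27pepL→18. The value for 27pepL→18 1, 7857 CPM, was 2.68 times that of its replicate, and 4 of the 5 libraries with a falling length trend lay above all 7 others. Every treated group overlapped pMCS, and log2 fold changes ran from −0.36 ± 0.56 for 27→18 to 0.68 ± 0.57 for 27pepL→18 (edgeR adjusted p = 1 in both). The pair of groups furthest apart was 27pepL→18 and 27→18, at 1.03 ± 0.57, where both libraries of the first lay above both of the second. The same order held for 2477 of the 20417 tested genes, and for 17.2% of those with a mean log2 CPM of at least 5. Between the libraries with a falling length trend the difference was 1.65, and between those with a rising trend 0.08, 1 library against 1 in each. The standard deviation of Actb over the 12 libraries was higher than that of 82.3% of the genes with a mean log2 CPM of at least 5.

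Actg1 (ENSMUSG00000062825, chr11:120345690-120348542, minus strand) stood at 1567 and 1804 CPM in pMCS, 2378 and 2928 in IL-18, 1499 and 2748 in IL-27, 2046 and 2029 in 27→18, 2788 and 1767 in 27pepL, and 2877 and 2805 in 27pepL→18. Both libraries of IL-18, 27→18 and 27pepL→18, the 3 groups that received IL-18, lay above both pMCS libraries, while IL-27 and 27pepL overlapped pMCS. The log2 fold changes were 0.65 ± 0.37 for IL-18, 0.27 ± 0.37 for 27→18 and 0.75 ± 0.37 for 27pepL→18 (edgeR adjusted p = 1 in all 3). For IL-27 the value was 0.33 ± 0.37 and for 27pepL 0.43 ± 0.37, both above that of 27→18. Actg1 in 27→18 differed from IL-27 by −0.06 ± 0.37, and in 27pepL→18 from 27pepL by 0.32 ± 0.37. Averaged over the 3 plasmids, IL-18 moved Actg1 by 0.30 ± 0.22 (edgeR adjusted p = 1). The replicates of IL-27 (1499 and 2748 CPM) differed by 1.83-fold.

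**Figure D2:**
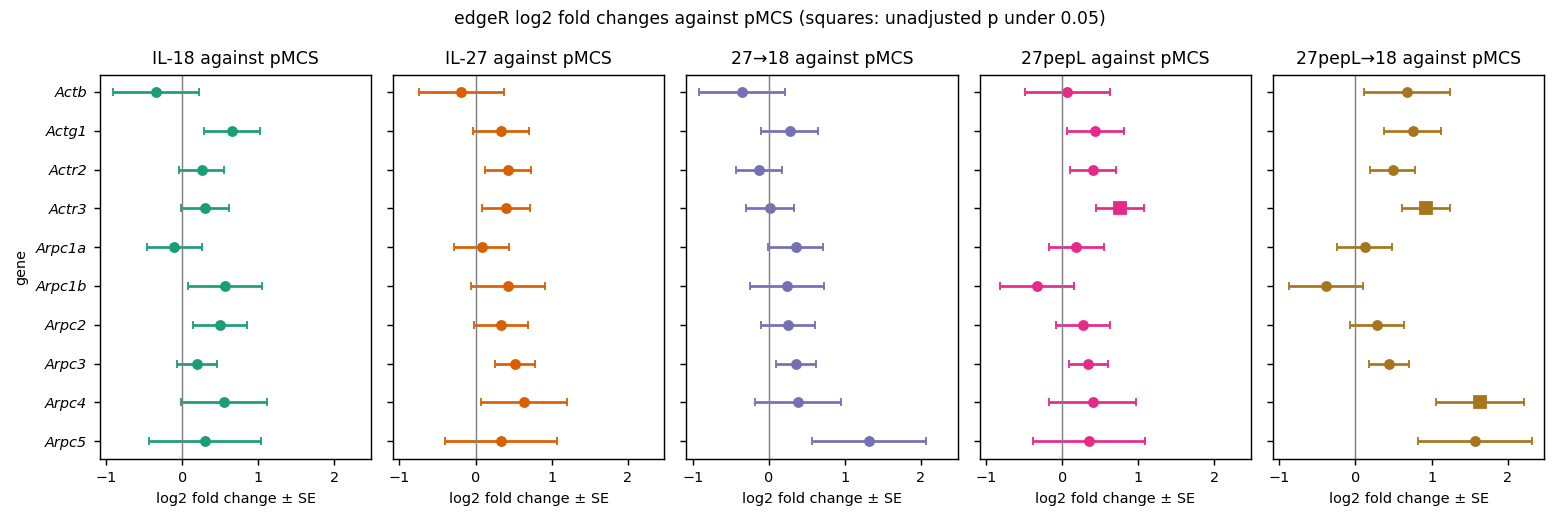
Log2 fold change against pMCS with its standard error from edgeR (horizontal axis) for each of the 10 genes (vertical axis), 1 panel for each treated group, 2 libraries a group. Squares have an unadjusted p under 0.05, which were Actr3 in 27pepL and 27pepL→18 and Arpc4 in 27pepL→18.

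Taken over the 10 genes, most values lay above pMCS. Log2 fold changes were positive for 8 of the 10 members with IL-18 and with 27→18, and for 9 with IL-27, 27pepL and 27pepL→18. In 27pepL→18 their median was 0.58, in IL-27 0.37, in 27pepL 0.35, in IL-18 0.30 and in 27→18 0.26. The median over all tested genes lay between −0.03 and 0.00 in these comparisons, and 46.8 to 50.1% of genes were positive. Among the 5522 more abundant genes the medians lay between −0.08 (IL-27) and 0.09 (27pepL), and 39.3% (IL-27) to 60.8% (27pepL) were positive. These comparisons share the pMCS libraries, and pMCS 1 was the lowest of the 12 for Actr3, Arpc2 and Arpc3. Without pMCS 1 the members' medians were 0.49 in 27pepL→18, 0.32 in 27pepL, 0.23 in IL-27, 0.18 in IL-18 and 0.09 in 27→18, where 5 members were positive. Without 27→18 2 the median in 27→18 was 0.03.

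The order of the libraries was also compared. Both treated libraries lay above both pMCS libraries for 6 members with IL-18, where 19.3% of all genes did so, and for 3 with IL-27 (10.7% of genes). The number was 2 with 27→18 (12.3% of genes), 4 with 27pepL (13.5%) and 6 with 27pepL→18 (14.1%), and no member lay below pMCS in both libraries in any group. Among the more abundant genes that share was higher for IL-18 (28.0%), 27pepL (18.7%) and 27pepL→18 (18.5%) and lower for IL-27 (8.35%) and 27→18 (8.66%). An unadjusted p under 0.05 was reached by 2 members in 27pepL→18 and 1 in 27pepL, and by 0 in IL-18 (2.83% of genes), IL-27 (4.56%) and 27→18 (2.4%).

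The members were also compared among the treated groups. From IL-27 to 27→18, 2 of the 10 members had positive values (median −0.17), beside 48.2% of all genes and 61.4% of the more abundant ones. From 27pepL to 27pepL→18, 8 had positive values (median 0.13), beside 49.6% and 46.9%. The effect of IL-18 was lower after IL-27 than after pMCS for 7 members and higher for 3. It was higher for 46.7% of all genes and 47.2% of the more abundant ones. The median difference of the members was −0.63 beside −0.07 over all genes, and no member passed adjustment (the lowest was an edgeR adjusted p = 0.948). This contrast also rests on the pMCS libraries. In 27pepL→18 over 27→18, 8 members were positive (median 0.37), beside 46.2% of all genes and 57.2% of the more abundant ones.

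The members did not move as a block from library to library. Of the 45 pairs, 27 had a positive and 18 a negative Pearson r, and the lowest was −0.85 between Actb and Arpc1b (Spearman's rho = −0.75). Arpc1b went with Arpc2 (r = 0.69), and Arpc5 with Arpc1a (r = 0.64). With the leukocyte marker sum, r ran from −0.43 (Actb) to 0.54 (Arpc3). These correlations describe 12 libraries that share groups and length trends and carry no test.

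**Figure D3:**
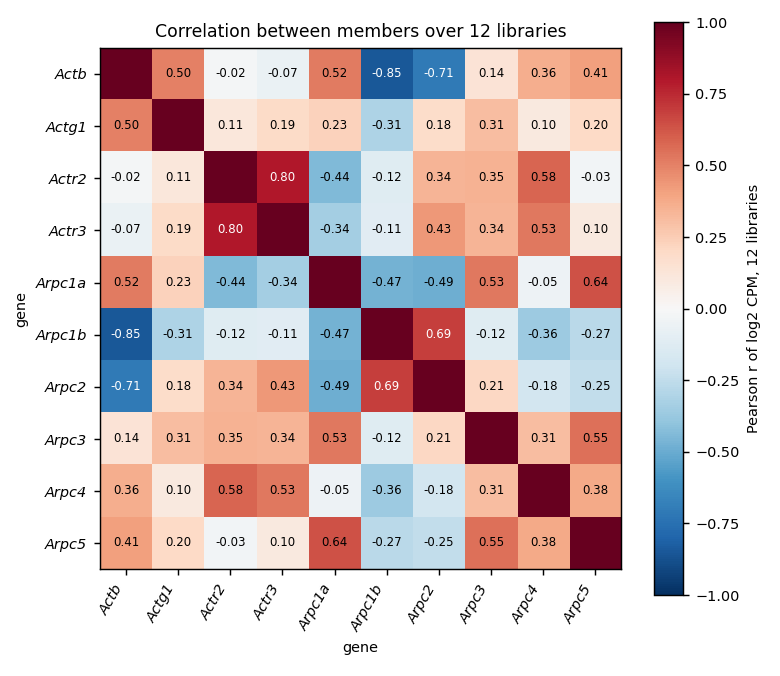
Pearson r of log2 CPM over the 12 libraries between each pair of the 10 genes (both axes, colour from −1 to 1). The highest value is 0.80 for Actr2 with Actr3, and the lowest is −0.85 for Actb with Arpc1b.

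The balance between versions of a subunit was followed over the libraries as ratios of counts, which do not depend on library scaling. For a ratio of 1 gene to another, changes between libraries do not depend on the transcript lengths chosen. For the ratio of the Arp2/3 sum to the actin sum they do. By counts it was 0.271 in 27→18 1 and 0.285 in IL-18 2, and per kilobase 0.303 and 0.301. The libraries also differed in their length trend. Arpc1b to Arpc1a lay at 0.622 to 2.0 in the 5 libraries with a falling trend and at 2.06 to 3.79 in the other 7. The part of the trend in the ratios was not tested. The ratio of Actb to Actg1 had a median of 0.45 on the log2 scale, a low of 0.862 in IL-18 2 and highs of 2.54 in pMCS 1 and 2.73 in 27pepL→18 1. The ratio of Arpc1b to Arpc1a was highest in IL-18 2 (3.79) and lowest in 27pepL 1 (0.622) and 27pepL→18 1 (0.787), whose replicates were at 2.65 and 2.21. The ratio of Arpc5 to Arpc5l ran from 0.600 in pMCS 1 to 2.43 in 27pepL→18 1. The 8 subunits together held from 0.166 (27pepL→18 1) to 0.497 (IL-27 1) of the counts of the 2 actins. Per kilobase of transcript, which compares the levels of the genes, Actb to Actg1 ran from 0.996 to 3.16, Arpc1b to Arpc1a from 0.451 to 2.75, Arpc5 to Arpc5l from 0.44 to 1.78 and Arp2/3 to actin from 0.187 to 0.537.

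None of the 4 ratios was shown to differ between groups. The spread within pairs of replicates was set beside that under every other pairing in an exact permutation test over all 10395 pairings of the 12 libraries (one-sided, smallest possible p = 0.0001), with p = 0.532 for the 2 actins, p = 0.594 for Arpc1b to Arpc1a, p = 0.673 for Arpc5 to Arpc5l and p = 0.903 for Arp2/3 to actin. Adjusted over the 4 ratios the values were 0.897, 0.897, 0.897 and 0.903. Every group except IL-18 joined libraries of opposite length trend, which widens the spread within pairs for a ratio that goes with the trend. For such a ratio, as Arpc1b to Arpc1a, the test could miss a difference between groups. Within groups the standard deviation on the log2 scale was 0.50 to 0.82.

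**Figure D4:**
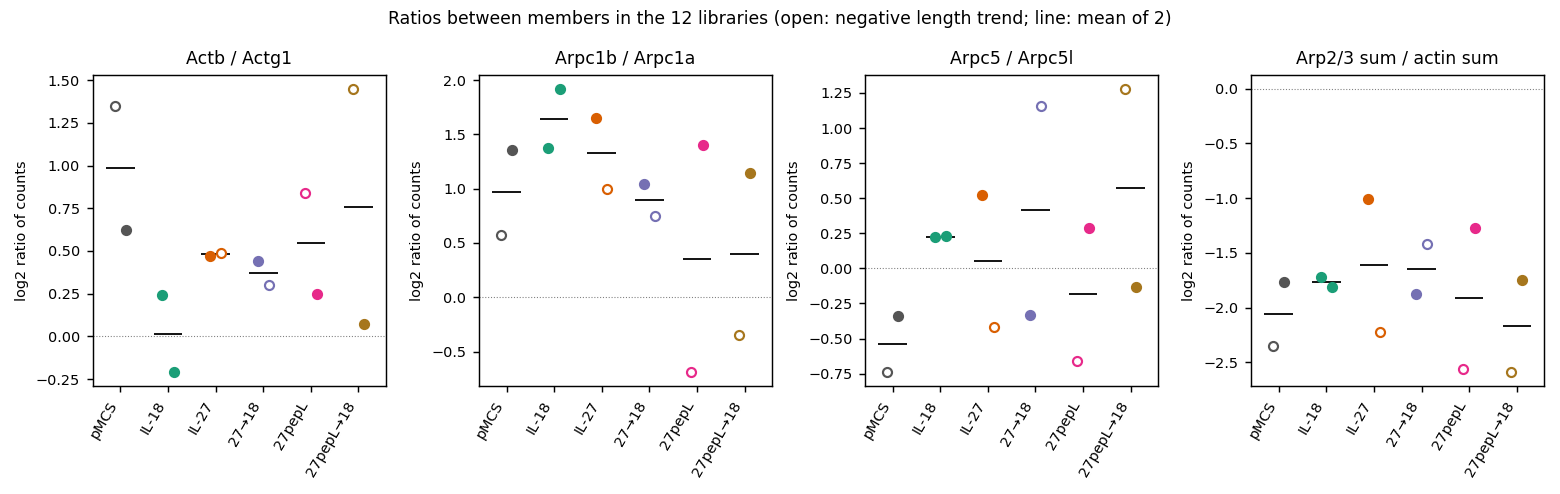
Log2 ratio of counts (vertical axis) in the 2 libraries of each group (horizontal axis) for Actb to Actg1, Arpc1b to Arpc1a, Arpc5 to Arpc5l and the Arp2/3 sum to the actin sum. Lines are means of 2 and open points the 5 libraries whose levels fell with transcript length. For Arpc1b to Arpc1a, the 2 values below 0 are 27pepL 1 and 27pepL→18 1.

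The rest of the branching machinery was read from 14 lists with 126 genes, of which 124 entries were tested. None passed adjustment against pMCS in any group, and 21 of 620 tests (3.39%) had an unadjusted p under 0.05, 19 of them higher, beside 2.4 to 4.56% of all genes in these 5 comparisons. Of the 21, 5 were Lcp1, described below, against the same 2 pMCS libraries. The upstream switches Rac1, which drives the WAVE complex, and Cdc42 ran from 357.9 to 464.8 CPM and from 405.7 to 727.7 CPM.

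Among the 9 tested activators of the complex, cortactin (Cttn) ran from 122.8 to 236.5 CPM and Washc1 from 38.3 to 86.3. Wasf2, the WAVE2 protein, was at 40.0 to 97.4 CPM in 11 libraries and at 3.02 in 27pepL 1. The WAVE partners Nckap1 (146.2 to 243.7 CPM), Brk1 (107.6 to 232.8) and Cyfip1 (57.0 to 105.3) varied less. Coronins, which help take branches apart, were at 121.0 to 196.6 CPM for Coro1c and 61.6 to 172.7 for Coro1b, beside Gmfb at 80.7 to 154.5, and the list's median change was 0.65 in IL-27 and 0.09 to 0.24 in the other groups. This list summed to 724.1 CPM in IL-27 1, the library with the highest leukocyte marker sum, to 481.5 in IL-27 2, and to 378.6 and 486.0 in pMCS. Of the 13 formins and other nucleators of unbranched filaments (medians −0.08 to 0.40), Inf2 ran from 33.7 to 139.8 CPM, Fmnl3 from 52.3 to 85.3 and Fmnl2 from 17.0 to 92.1.

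The next lists hold the proteins that feed, cap and bind filaments. Profilin (Pfn1), which hands monomers to growing ends, ran from 1009.7 to 2000.2 CPM, cofilin (Cfl1) from 796.9 to 1543 and thymosin β4 (Tmsb4x) from 789.3 to 4118, and this list's medians were −0.08 to 0.23. Among capping and severing proteins, gelsolin (Gsn) was at 3384 CPM in IL-27 1 and at 141.7 to 327.8 in all other libraries, while Capzb (232.2 to 384.5) and Capg (202.9 to 444.7) stayed within a narrower range. Of the 10 crosslinkers and membrane linkers (medians −0.06 to 0.48), moesin (Msn) was at 457.3 to 731.9 CPM, filamin (Flna) at 308.8 to 795.2 and fascin (Fscn1) at 160.2 to 309.2.

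Of the tropomyosins and myosin chains (medians −0.09 to 0.27), Tpm4 was at 611.5 to 1068 CPM, Tpm3 at 506.0 to 948.5 and Myl6 at 436.3 to 1129. The list of SRF and its targets, whose promoter motif is described above for Actg1, had medians of −0.04 to 0.40, with Tagln2 at 373.5 to 587.0 CPM, Cnn2 at 181.7 to 261.4 and Zyx at 43.6 to 220.4. The dynactin proteins Actr1b, Actr10 and Actr1a, which share the actin fold but lie outside Arp2/3, had medians of 158.2, 112.4 and 106.8 CPM, and this list's median changes were −0.19 to 0.19. Of the muscle actins, Acta2 ran from 15.3 to 58.8 CPM and Actg2 reached 3.03, while Acta1, also a marker of the skeletal muscle list that was high in 27→18, reached 47.5 CPM.

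Lcp1 (L-plastin), an actin bundler of leukocytes, was singled out after its values were seen, because its unadjusted p was under 0.05 in all 5 comparisons with pMCS. It stood at 21.5 and 29.7 CPM in pMCS and at 65.3 to 217.0 in the 10 treated libraries, without overlap. In a single treated group, 10.7 to 19.3% of all genes lay above both pMCS libraries. The log2 fold changes ran from 1.87 ± 0.53 (27pepL) to 2.50 ± 0.55 (IL-27), and the smallest adjusted p of these 5 was 0.312 (27pepL→18, edgeR). For the mean of the 5 cytokine groups against pMCS it was 0.167 (edgeR). All 5 comparisons share the same 2 pMCS libraries. The leukocyte marker sum was 240.8 and 288.8 CPM in pMCS and 248.5 to 1554 in the treated groups, and it correlated with Lcp1 over the 12 libraries at r = 0.64 (Spearman's rho = 0.74). The macrophage marker sum was 315.7 and 602.3 CPM in pMCS and 445.2 to 2674 in the treated groups. The part of these cells in the Lcp1 values was not tested.

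Myl9, a regulatory light chain of smooth muscle and nonmuscle myosin from the SRF list, was also singled out after its values were seen. It stood at 18.8 and 19.5 CPM in pMCS and at 22.0 to 58.5 in the 10 treated libraries, again without overlap. Its log2 fold change was 1.30 ± 0.39 in IL-18, 1.21 ± 0.39 in IL-27 and 1.24 ± 0.39 in 27pepL→18 (edgeR adjusted p = 1, 1 and 0.921), and 0.64 ± 0.38 in 27→18 and 0.52 ± 0.38 in 27pepL. These comparisons share the 2 pMCS libraries, and 27→18 1 (22.0 CPM) lay only just above pMCS 2 (19.5 CPM). The share of all genes above both pMCS libraries in a single group, 10.7 to 19.3%, applies here too.

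By Pearson r over the 12 libraries, among 5309 other named genes with a mean log2 CPM of at least 5, the genes most like the mean of Actb and Actg1 were Mapk3 (r = 0.95), Atg101, Ado, Cd44 and Tpm3 (each 0.94), Mt1 and Slc39a7 (each 0.93) and Ppp1ccb (0.92). Tpm3 is a tropomyosin, which lies along actin filaments, and Cd44 a hyaluronan receptor. The genes most like the mean of the 8 Arp2/3 subunits were M6pr (0.86), Wtap (0.82), Il13ra1 and Ctsb (each 0.80), Tmem33 and Ctsd (each 0.79), Slc44a2 (0.78) and Ndfip1 (0.75). Ctsb and Ctsd are lysosomal proteases and M6pr a receptor that carries enzymes to lysosomes. By Spearman's rho, 2 of the first 8 and 5 of the second 8 were again among the top 8.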

How the data were processed

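The data were gene counts of poly(A) RNA from 12 pools of tumors, read paired-end from stranded libraries. The authors deposited raw counts per gene, with no scaling. They checked reads with FastQC 0.11.3, aligned them with HISAT2, assembled transcripts with StringTie and tested with edgeR. For the genome build and for the step from StringTie to counts, neither labels nor methods name anything (not given in the sources used here). All 55450 gene identifiers are those of GENCODE M21 (GRCm38), which gave names, positions and lengths. Reads that fit several genes equally, as between Actb and Actg1, could be assigned differently by other settings.

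The main test was edgeR's quasi-likelihood test (edgeR 4.0.16, R 4.3.3). Its filterByExpr, by group, left 20417 genes, and TMM factors (0.849 to 1.111) set the scale. All 12 libraries entered 1 model of the 6 groups, from which 15 contrasts and an F test were taken, each with Benjamini-Hochberg adjustment over the 20417 genes. The steps were also run on simulated counts, drawn independently for each library and without a length trend. That run therefore does not show how the steps handle such a trend or shared tumors. CPM values use TMM factors, and log2 CPM for correlations a prior count of 2. DESeq2 1.42.0 was an alternative, beside RLE scaling, no filter, the compared groups alone, a replicate block, a term for transcript length, leaving out each library, summed symbols and added pseudogene counts. A term for the sign of the length trend was chosen after seeing the data. The methods give 4 to 6 tumors for a group and the labels 4 to 6 for a pool, so the 2 pools of a group may share tumors, and p-values measure only the spread between these pools.

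The members and lists were chosen with earlier results of these data known. In the related lists, the 3 genes with the highest mean CPM were named, with any past an adjusted p of 0.05 (hepatocyte markers only), and the 8 genes most like each member set by Pearson r, without predicted genes. Ratios were tested over all pairings of libraries with Python 3.11.15, and coding sequences were aligned with Biopython 1.88. The values of 2 of the lists and of 1 marker are not reported here. The list of 9 tropomyosins and myosin chains has 10 entries, since Myl12b occurs under 2 identifiers.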

Additional observations from a re-analysis of the deposited data

How the results depend on the processing

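Members called at an adjusted p of 0.05 (edgeR unless named) stayed at 0 in 318 of 320 recomputations of the 15 comparisons. Without the filter on low counts, 2 members passed for 27pepL→18 against pMCS, Arpc4 (log2 fold change 1.65, adjusted p = 0.0102) and Arpc5 (1.58, adjusted p = 0.0169), and 1 for the mean effect of added IL-18. The cause was not tested, and genes called over the whole table rose there from 0 to 77 in a comparison to 105 to 977. With DESeq2 21 to 336 genes were called in a comparison, with the edgeR exact test 0 to 198, and with the compared groups alone 0, against 234 to 1197 genes at an unadjusted p under 0.05 in the main analysis. The deviations of libraries with the same replicate number correlated at r = −0.28 to 0.34 over the 15 pairs of groups. They were positive between pMCS and 27pepL (0.21), pMCS and 27pepL→18 (0.26) and 27pepL and 27pepL→18 (0.34), whose replicates 1 all had the falling length trend, but not in every pair, so the numbers were not taken to pair the samples. The replicate block called 0 members and at most 53 genes and turned no direction.

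Directions of member values turned in 4 of 528 recomputations other than leaving out a library. With a term for the sign of the length trend these were Actb in IL-18 (0.072) and 27pepL (−0.026) and Arpc1a in IL-18 (0.15), and with the length term Arpc1a in IL-18 (0.15). Leaving out 1 library turned 21 of 53 values against pMCS or between groups. For IL-18 the ranges were −0.26 to 0.052 (Arpc1a) and −0.20 to 1.06 (Arpc4). For IL-27 they were −0.71 to 0.22 (Actb), −0.18 to 0.72 (Actg1), −0.11 to 0.27 (Arpc1a) and −0.079 to 1.11 (Arpc4). For 27→18 they were −0.33 to 0.11 (Actr2), −0.10 to 0.17 (Actr3), −0.068 to 0.69 (Arpc1a), −0.011 to 0.56 (Arpc1b), −0.067 to 0.68 (Arpc2), −0.081 to 0.75 (Arpc4) and −0.22 to 2.04 (Arpc5). For 27pepL they were −0.68 to 0.58 (Actb), −0.23 to 0.52 (Arpc1a), −1.15 to 0.19 (Arpc1b) and −0.041 to 0.71 (Arpc2). For 27pepL→18 they were −0.20 to 1.23 (Actb), −0.11 to 0.33 (Arpc1a), −1.004 to 0.053 (Arpc1b) and −0.17 to 0.72 (Arpc2). Actr3 in the 27pepL forms against the IL-27 forms stayed between 0.45 and 0.80. A group left with 1 library was assumed to vary like the others. The lowest level of a member was 54.5 CPM, in libraries of 49844915 counts or more.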
